A study of Rattus norvegicus with 16 samples.

Results

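The hearts of rats given the higher dose of streptozotocin, 100 mg/kg, were compared with the hearts of untreated rats. The comparison used 10 of the 16 libraries of the study, chosen by their titles: control 1 to 4 and D100 A to F. All animals were male Wistar rats, and none is described as carrying a genetic change. D100 rats weighed 240 to 260 g and had 1 injection into a tail vein under halothane, and their blood glucose was above 13 mmol/L when tested 24 hours later. Controls are labelled as given no agent at a dose of 0 mg/kg, so the labels record no vehicle injection for them. Hearts were drained of blood and taken 4 days into follow-up, and the values describe RNA of the whole organ. In such bulk samples, fewer cells of a type and less RNA per cell cannot be told apart. D100 names both a dose and the diabetes that followed, so an effect of the drug on the heart and an effect of insulin loss cannot be told apart in this design.

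Streptozotocin enters the beta cells of the pancreatic islets through a glucose transporter and kills them, so that insulin falls and blood glucose and fatty acids rise. A heart without insulin is known to take up less glucose and to burn more fat. Fatty acids act on the nuclear receptor PPAR alpha, which raises genes of fat transport and oxidation and the pyruvate dehydrogenase kinase Pdk4, while FoxO factors freed from insulin's restraint raise genes of protein breakdown. The files name genes by Ensembl identifier and do not pair these with symbols, and the RefSeq gene table at hand shared 0 identifiers with them. The text names the 2 strongest rises and the 2 strongest falls by identifier. The pathways above and the cell type markers of the heart were not read out. The label "heart" was for the same reason not checked against heart genes.

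Libraries differed in ways that touch every result below. Total estimated counts were 34.5 M ± 9.56 (SD, n = 4) in controls and 20.2 M ± 7.87 (SD, n = 6) in D100, a gap of -14.3 M with an exact two-sided permutation p of 0.00476, the smallest that 210 assignments allow, or 0.0333 adjusted over 7 library measures. Every control total lay above every D100 total, with the lowest control at 26.2 M and the highest D100 heart at 25.6 M. Without control 4 the gap was -9.72 M (exact two-sided permutation p = 0.0714), though the totals still did not overlap. The 10 most abundant genes of these libraries took 44.0, 43.4, 59.4 and 52.2% of the counts in control 1, 2, 3 and 4. In D100 A to F they took 63.0, 68.9, 63.4, 61.1, 54.7 and 53.4%. Control 3 thus lay above D100 E and D100 F, and the other controls lay below all D100 hearts. The group means were 49.8% ± 7.60 (SD, n = 4) and 60.7% ± 5.80 (SD, n = 6), a difference of 11.0 percentage points (exact two-sided permutation p = 0.0381, adjusted 0.0533). The other 5 measures, genes with a count before and after thinning to one depth and scores on 3 principal components, had adjusted exact p-values of 0.0533 to 0.205. The largest was that of the first component, which held 45.6% of the variance. Its scores overlapped, at -54.4 to 15.8 in controls and -80.8 to 79.5 in D100.

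All classes of genes below the top 10 held a smaller part of the counts in D100. Genes from there to rank 100 held 12.7% ± 1.93 (SD, n = 4) of the counts in controls and 9.80% ± 1.39 (SD, n = 6) in D100. The genes after those, to rank 1000, held 17.3% ± 2.19 (SD, n = 4) and 13.8% ± 1.73 (SD, n = 6), and all lower ranks 20.2% ± 3.48 (SD, n = 4) and 15.6% ± 2.72 (SD, n = 6). Control 3, with 10.2, 14.4 and 15.9%, lay below D100 E (11.3, 15.5 and 18.5%) and D100 F (11.6, 15.8 and 19.2%) in each class. These classes were ranked on the same libraries, and no test was made of them. Of the 10 most abundant genes, 9 were among the first 10 in every library, so the same transcripts led in both groups.

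**Figure D1:**
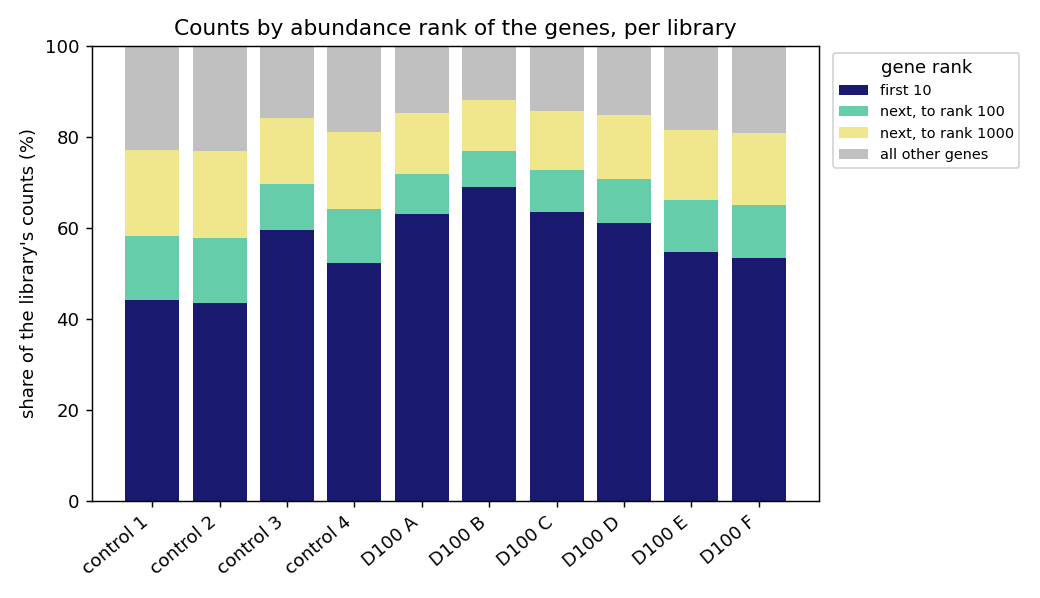
Share of each library's counts (percent, vertical axis) held by genes ranked by mean share over the 10 libraries, for control 1 to 4 and D100 A to F. The darkest segment, the 10 most abundant genes, spans 43.4 to 59.4% in controls and 53.4 to 68.9% in D100.

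Libraries of a group were not equally alike. Across the tested genes, on log2 CPM (each gene's count relative to its library's scaled total), D100 A, B, C and D had a median correlation of 0.963 to 0.972 with the other D100 libraries and of 0.898 to 0.938 with the controls. D100 E was closer to the controls (0.961) than to its own group (0.923), and so was D100 F (0.885 and 0.859). Control 3 stood between the groups, at 0.956 with its own and 0.957 with D100. Genes are not independent replicates, and these values only describe the libraries.

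The spread between hearts followed the same libraries. The coefficient of variation between hearts that edgeR estimated for all genes in common was 25.3% in controls and 35.9% in D100. It was 32.1% in D100 without E, 31.2% without F and 18.4% without both, and 18.4% in controls without control 3. These libraries were picked after their distance from their groups was seen. Leaving them out lowers the spread by itself, so the smaller values are no better estimate. D100 F was also the shallowest library, with 4.685 M counts against 20.32 to 25.58 M in the other D100 hearts. D100 E, with 25.48 M, was among the deepest of its group.

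Of 13541 genes tested, 841 (6.21%) differed between D100 and control hearts at an edgeR adjusted p of 0.05. In D100, 401 of them were higher (2.96% of tested genes) and 440 lower (3.25%). A typical rise was 1.95-fold and a typical fall 2.14-fold (medians). At least 2-fold changes made up 185 of the rises and 257 of the falls, and 36 rises and 60 falls were at least 4-fold. The fitted change was upward in 48.6% of all tested genes, and the median log2 change of all of them was -0.02. Without scaling factors that median was -0.47 and the split was 98 higher and 809 lower genes, while 840 of the 841 genes kept the sign of their change. The split of rises and falls therefore holds relative to the bulk of genes in each library.

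The groups did not overlap at all for 613 of the 841 genes: 284 of the higher genes had all 6 D100 values above all 4 controls, and 329 of the lower genes had all of them below. Over all tested genes this was so for 3.26% upward and 4.45% downward (7.7% in all). The calls themselves favour genes without overlap, so the counts over called genes in this paragraph only describe them. Single hearts lay beyond the whole opposite group for nearly all called genes, with 833 to 838 of 841 in D100 A, B, C and D (58.3 to 73.0% of all tested genes) and 814 to 833 in control 1, 2 and 4 (33.7 to 44.3%). The numbers were lower in control 3 (628, with 16.2% of all tested genes), D100 E (674, with 27.6%) and D100 F (758, with 40.8%). Control 3 was the control nearest to the D100 hearts for 70.5% of the called genes and 63.9% of all tested genes. Among D100 hearts, E was the nearest to the controls for 44.1% of called and 37.1% of tested genes, and F for 24.1 and 36.2%.

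Abundant genes were called more often than rare ones, and rises and falls did not share a level. The median level was 24.8 CPM for the higher genes, 9.40 CPM for the lower and 7.84 CPM for all tested genes. Below 1 CPM, 9 of 1738 genes rose and 46 fell, and from 1 to 10 CPM 102 of 5765 rose and 179 fell. From 10 to 100 CPM the order was turned, with 242 of 5254 genes higher and 181 lower, and from 100 to 1000 CPM 44 of 744 were higher and 29 lower. The median change of all genes moved the same way with level, from -0.29 on the log2 scale below 1 CPM to 0.13 at 10 to 100 CPM and 0.40 above 1000 CPM. The lower totals of the D100 libraries and the larger part of their counts held by the 10 most abundant genes went along with this slope; their part in it was not tested.

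**Figure D2:**
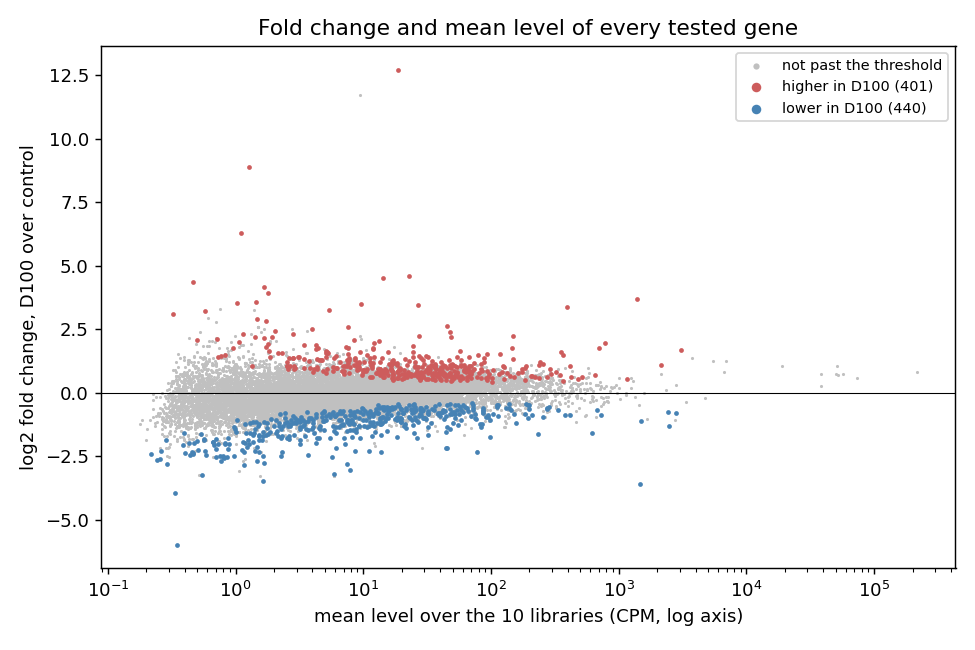
Log2 fold change of D100 over control (vertical axis) against the mean level over the 10 libraries (CPM, log axis), 1 point per tested gene. Of the coloured genes past the edgeR threshold, 401 are higher and 440 lower, and above 1000 CPM 4 are higher and 5 lower.

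Among the 40 genes above 1000 CPM, 4 rose (10%) and 5 fell (12.5%), against 2.96 and 3.25% of all tested genes. The largest rise in this class took a gene from 170 CPM ± 36.8 (SD, n = 4) in controls to 2195 CPM ± 1057 (SD, n = 6) in D100, 12.9-fold (edgeR adjusted p = 0.000303), which placed it 30th of all genes by mean level. The next took a gene from 1310 CPM ± 323 to 4204 ± 1089, 3.21-fold (edgeR adjusted p = 0.00279). The other two rose 2.14-fold and 1.44-fold, and for all 4 the lowest D100 heart lay above the highest control. The smallest of these rises ran from 920 CPM ± 64.3 to 1323 ± 80.5, with little spread in either group. The 5 abundant genes that fell did so by 1.70-fold to 12.0-fold, and 4 of them had no overlap between groups. Groups did not overlap for 72.9% of all called genes and 7.7% of all tested genes. Being called already favours this, and whether the level of a gene has a part in it was not tested. 

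The 10 most abundant genes were all fitted higher in D100 (9 of 10 without scaling factors), with log2 changes of 0.24 to 1.06 and a median of 0.75. EdgeR called 0 of the 10, though 7 had an unadjusted p below 0.05, as did 28.7% of all tested genes. DESeq2's test called 4 of them, against 17.3% of all tested genes, and limma-voom 10, against 69% of all. Values of the groups overlapped for each of the 10. The median was 0.30 without scaling factors.

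ENSRNOG00000034228.5 rose with the narrowest error of the genes named here. Its level was 1.25, 1.25, 1.72 and 1.82 CPM in control 1, 2, 3 and 4. In D100 A to F it was 24.6, 41.6, 45.2, 32.3, 44.4 and 32.3 CPM. Every D100 heart exceeded every control by at least 13.5-fold. That no heart overlaps the other group was a condition for naming a gene, here and in the genes that follow, so it says nothing about control 3 or D100 E and F. The means were 1.51 CPM ± 0.30 (SD, n = 4) and 36.7 CPM ± 8.28 (SD, n = 6), a 24.4-fold rise (log2 change 4.61, SE 0.24, edgeR adjusted p = 2.55e-06). Its estimates were whole numbers in 10 of 10 libraries, which is how reads that belong to 1 gene alone are counted. The rise passed in 26 of 26 alternative settings.

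ENSRNOG00000030351.4 was at 0 in each control after rounding. In D100 A to F it reached 25.6, 19.4, 35.8, 45.4, 2.10 and 58.6 CPM, from counts of 425, 284, 647, 991, 60 and 318. The D100 hearts spanned a 27.9-fold range, with E far below the rest. Its D100 mean of 31.1 CPM ± 20.0 (SD, n = 6) was higher than in controls, at least 1760-fold higher when taken against 3 counts over the pooled controls (0.0177 CPM), which covers counting error only (edgeR adjusted p = 0.00271). None of its estimates was whole (0 of 6 libraries), so reads of this gene were divided with similar sequences, which leaves the level uncertain. It was 1 of 2 genes with no count in any control and some in every D100 heart.

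ENSRNOG00000025757.2 had the largest fall, and it was one of the 5 abundant genes that fell. It stood at 3781, 4818, 1945 and 2398 CPM in control 1 to 4, the 28th highest mean level of all genes. In D100 A to F it stood at 131, 104, 257, 278, 191 and 656 CPM. The lowest control was 2.97 times the highest D100 heart, which was F, and control 3 was the lowest control. The mean fell from 3235 CPM ± 1313 (SD, n = 4) to 269 CPM ± 201 (SD, n = 6), 12.0-fold (log2 change -3.59, SE 0.47, edgeR adjusted p = 0.00173). Of the 6 libraries with an estimate under 10000, 1 held a whole number, so its reads too were partly shared. The fall passed in 26 of 26 alternative settings, but its size moved: the log2 change was -2.55 with the top-10 share of each library as a covariate, -4.18 in limma-voom and -4.22 with control 3 and D100 E and F left out.

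ENSRNOG00000022932.4 had the second largest fall, with an uneven control group. Its level was 24.2, 5.30, 2.99 and 18.2 CPM in control 1 to 4, an 8.11-fold range. In D100 A to F it was 0.843, 1.09, 1.33, 1.19, 2.45 and 1.11 CPM. The groups came close to each other, with the lowest control, control 3, only 1.22 times the highest D100 heart, E. The mean fell from 12.7 CPM ± 10.2 (SD, n = 4) to 1.34 CPM ± 0.57 (SD, n = 6), 9.20-fold (log2 change -3.20, SE 0.53, edgeR adjusted p = 0.00600). It no longer passed once the fit held the top-10 share of each library as a covariate (log2 change -2.16, edgeR adjusted p = 0.104) or with counts thinned to one depth (log2 change -2.64, edgeR adjusted p = 0.0710). With control 3 and D100 E and F left out the log2 change was -3.80. Its estimates were whole in 0 of 10 libraries.

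**Figure D3:**
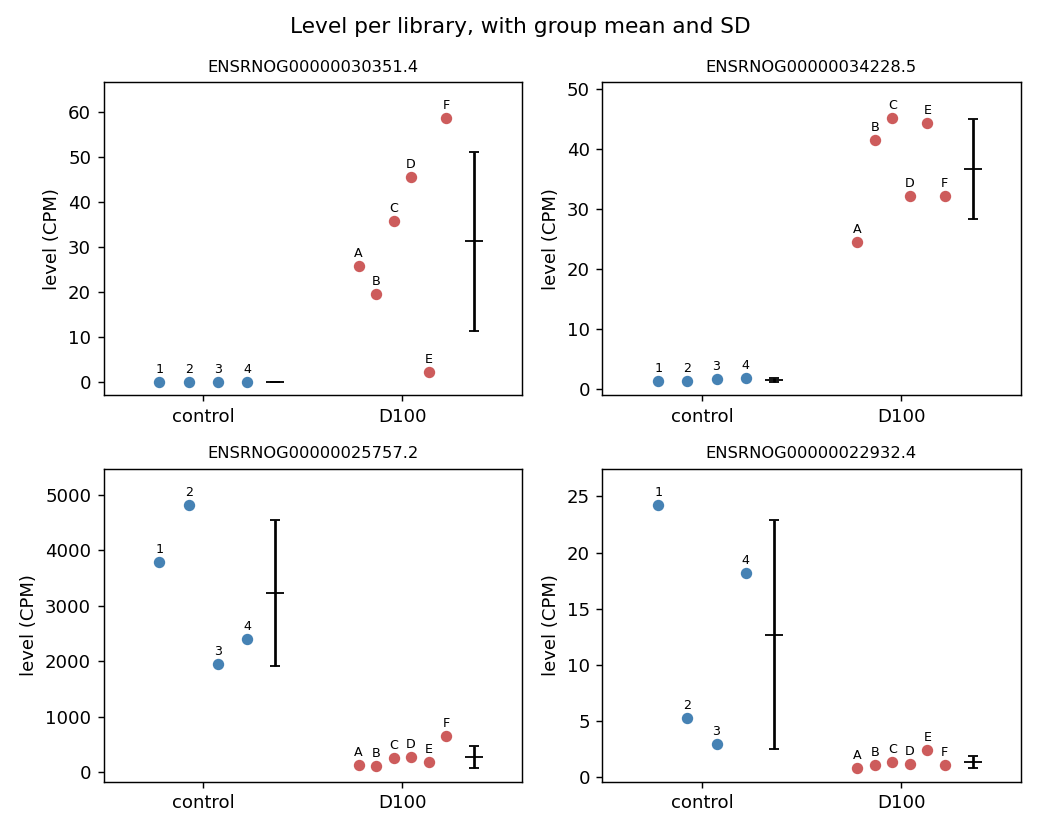
Level (CPM, vertical axes from 0) of the 2 genes with the largest rise and the 2 with the largest fall in each control (numbers 1 to 4) and D100 heart (letters A to F), with the group mean and SD as bars. The genes were chosen without overlap, so no D100 point lies within the control points; the nearest are control 3 and D100 E of ENSRNOG00000022932.4, at 2.99 and 2.45 CPM.

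These genes headed lists of 234 higher and 201 lower genes that met the same conditions (called, not overlapping, and averaging 5 CPM or more). The 10 largest rises ranged from 5.96-fold upward, with a median of 11.0-fold, and the 10 largest falls from 4.48-fold to 12.0-fold, with a median of 5.44-fold. In either set of 10, estimates were mostly not whole for 3 genes. Over all 841 called genes this was 20.5%, against 22.8% of the tested ones. In the opposite direction to ENSRNOG00000030351.4, 19 of 23918 identifiers had a count in every control and none in any D100 heart. The 19 genes held 5 to 68 counts over the 4 controls, all below the filter on low counts, so 0 of the 19 were tested. The number of 2 genes in the other direction asks for a count in every D100 heart, the shallow D100 F among them, so the numbers are not alike. With all libraries thinned to one depth they were 3 upward and 19 downward.

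Each heart was then set against genes called without it, which gives a reading of direction in a library that had no part in the call. For a D100 heart the change was taken against the control mean, and for a control against the D100 mean. The opposite group did take part in the calls. D100 A, B, C and D lay on the called side for 99.7 to 99.8% of 344 to 415 genes, and control 1, 2 and 4 for 100% of 186, 211 and 209 genes. Over all tested genes the shares were 82.8 to 87.9%. Control 3 lay on the called side for 91.3% of 2016 genes (64.5% of all tested), D100 F for 80.7% of 1859 (55.7%) and D100 E for 74.9% of 2974 (55.3%). The shares over called genes rest on a different set of genes for each heart left out. With control 3 or D100 E or F left out, more genes with smaller fitted changes were called. The shares over called genes are therefore not comparable between hearts.

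The size of the change set the same hearts apart. D100 A, B, C and D differed from the control mean by a median of 1.06 to 1.28 on the log2 scale in the called direction, near the fitted medians of 1.21 to 1.28 for the same genes. D100 F differed by 0.44 where the fit without it gave 0.94, and D100 E by 0.20 where the fit without it gave 0.93. Control 1, 2 and 4 differed from the D100 mean by 1.29 to 1.38 where the fits without them gave 1.38 to 1.46. Control 3 differed from it by 0.34 where the fit without it gave 1.02. Over all tested genes the median was 0.38 to 0.57 in D100 A, B, C and D and 0.36 to 0.47 in control 1, 2 and 4. It was 0.090 in D100 F, 0.040 in D100 E and 0.10 in control 3. These hearts were also the 2 D100 hearts in which the 10 most abundant genes took the least of the counts, and the control in which they took the most. Whether this composition has a part in the smaller changes was not tested.

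**Figure D4:**
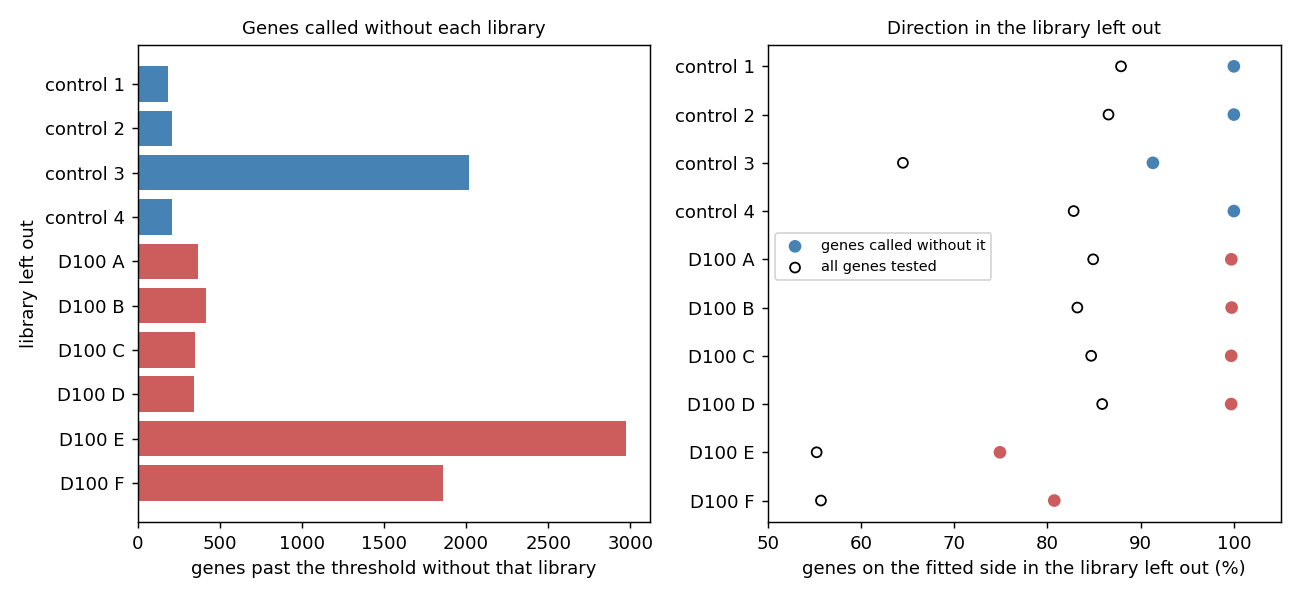
Left, the number of genes past the edgeR threshold when 1 library is left out (blue, control; red, D100). Right, the percent of those genes (filled) and of all tested genes (open) whose value in the library left out lies on the fitted side. D100 E (74.9%), D100 F (80.7%) and control 3 (91.3%) are the lowest. Filled points rest on different genes for each library left out.

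How many genes differed thus rested on which hearts were counted. Without control 3 there were 2016 genes past the threshold, without D100 E 2974 and without D100 F 1859. Without any 1 of the other hearts there were 186 to 415. Nearly all of the first list stayed when a heart that stood apart was left out: 827 of 841 without control 3, 836 of 836 still tested without D100 E and 837 of 837 without D100 F were called in the same direction. Far fewer stayed when another heart was left out: 184, 210 and 208 without control 1, 2 and 4, and 341 to 414 without D100 A, B, C or D. The list was drawn from these same libraries, so what stayed is no independent support. With D100 E and F both left out, 6951 of 13147 genes passed (3218 higher, 3733 lower), and with control 3 left out too, 8471 of 13519. These hearts were picked after their distance from their groups was seen, which by itself widens the difference, so the larger counts are no better estimate. A fit with the top-10 share of each library as a covariate called 398 genes, 217 upward and 181 downward; 244 of the 841 were called there in the same direction.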

How the data were processed

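Each deposited file lists estimated counts by gene from kallisto 0.43.1 on Rnor_6.0, per the submitters' processing notes; libraries were stranded and poly(A)-selected from 400 ng of RNA, per the labels. Annotation release and strand setting: not given in the sources used here. Kallisto divides reads between similar sequences, so an estimate within 0.01 of a whole number (judged from 1 to 10000) was taken as undivided.

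Estimates were rounded. Of 23918 identifiers 13541 passed filterByExpr with the 2 groups. The fit used edgeR 4.0.16 in R 4.3.3 (TMM scaling, glmQLFit, glmQLFTest; standard errors from the fold and the F statistic) on the 10 libraries, without D55, whose B and E libraries were known to widen a shared spread. Benjamini-Hochberg adjustment ran over all tested genes. Single library values were compared by exact two-sided permutation. A count of 3 equals 0.0541 to 0.553 CPM per library on scaled totals. No pair of libraries within a group was a duplicate (lowest chi-square per degree of freedom 12.0).

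Members, lists and tests were chosen with earlier results of these data known. Named genes were the 2 largest rises and 2 largest falls among called genes averaging 5 CPM or more whose groups did not overlap; the symbol-based parts of the rule, the gene lists, the mitochondrial share and the marker lists were not run, since 0 identifiers matched the 47357 rows of the RefSeq gene table for GRCr8. The test was checked on simulated counts. Alternatives used DESeq2 1.42.0, limma 3.58.1 and sva 3.50.0. Principal components used log2 CPM with a prior count of 2. The labels say each library is a separate rat and name no batch.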

Additional observations from a re-analysis of the deposited data

Results flagged for a closer look

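Within-group gaps were examined for 7 library measures and the 4 named genes in both groups, 22 sets of values. Chance flags about 1 in 20 unrelated sets. These sets share libraries, 1 of them (ENSRNOG00000030351.4 in controls) was all 0, and the named genes were picked from these data. The number flagged is therefore not comparable with that rate. In 5 sets a heart stood apart from its group by a gap larger than Dixon's 95% limit. D100 F stood apart in 4 of them: its total of 4.685 M counts, its 13290 genes with a count, its score of 109 on the second principal component (30.3% of the variance) and its level of ENSRNOG00000025757.2, 656 CPM. D100 E stood apart in its level of ENSRNOG00000022932.4, 2.45 CPM, the highest of the D100 hearts. With every library thinned to the total of D100 F, controls had counts for 14496 ± 420 genes (SD, n = 4) and D100 hearts for 13712 ± 463 (SD, n = 6) (exact two-sided permutation p = 0.0333, adjusted 0.0533 over 7 measures), and D100 F no longer stood apart.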

How the results depend on the processing

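Counts of genes past the threshold (841, 401 higher and 440 lower) moved by over 1.5 times in these settings: DESeq2's test (2340; 1283 higher, 1057 lower), limma-voom with quality weights (9341; 4350 and 4991), 1 surrogate variable (3159; 1514 and 1645), all libraries of the series but D55 B and E (1493; 711 and 782), the covariate (398; 217 and 181), a 1.5-fold threshold, which asks for more (90; 51 and 39), and thinning to the shallowest library (150; 82 and 68 of 10851 tested). Without scaling factors 98 were higher and 809 lower. Chosen after seeing the data, leaving out D100 E and F gave 6951 (3218 and 3733), and control 3 too 8471 (4061 and 4410). Leaving out 1 library gave 186 to 2974 genes, 102 to 1435 of them higher and 84 to 1539 lower. The cause of these moves was not tested. Only thinning and leaving out libraries of the compared groups also lowered the numbers of counts or libraries in the comparison. DESeq2's size factors, totals without the 10 most abundant genes, no filter, a stricter filter, a robust spread and all 16 libraries stayed within 1.5 times, with 621 to 821 genes in all. All called genes still tested kept their sign in every setting except 1 without scaling factors and 4 of 742 when thinned. The calls of ENSRNOG00000034228.5, ENSRNOG00000030351.4 and ENSRNOG00000025757.2 held in 26 of 26 settings, and that of ENSRNOG00000022932.4 in 23 of 25. Each setting used all or most of the libraries that chose these genes, so kept signs and calls are no independent support.

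Leaving out 1 library, the gap in total counts was -17.1 to -9.72 M, in genes with a count -1651 to -1030 and in the share of the 10 most abundant genes 8.86 to 14.2 percentage points. The unadjusted exact p rose above 0.05 for total counts only without control 4, for genes with a count without control 1, 2 or 4, and for the share without control 1 or 2 or D100 A, B, C or D. No paired analysis was possible because controls are numbered, D100 rats are lettered and no label links them. D100 F's 4.685 M counts limit genes under about 1 CPM.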
